A study of Mus musculus with 6 samples.

Results

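The SRY-box transcription factor genes of the SoxD group (Sox5, Sox6 and Sox13) and the SoxE group (Sox8, Sox9 and Sox10) were followed across the 6 RNA-seq libraries of a mouse oligodendrocyte progenitor cell (OPC) study. The 6 genes were taken by symbol from 24421 listed genes, and all 6 passed the filter on low counts, as did 15906 genes in all. The tested libraries (knockout, n = 3) came from Prrc2bf/f; Olig2-Cre mice, in which both Prrc2b alleles are floxed and Cre is driven from Olig2. The control libraries (n = 3) came from Prrc2bf/f mice, which carry the same floxed alleles without Cre. All mice were of the C57BL/6J strain, and the cells came from the cortex of pups on postnatal day 4, were passed over GalC-coated dishes and collected on O4-coated ones, and were grown in a proliferation medium with PDGF-AA and bFGF. Olig2 is active in the whole oligodendrocyte lineage and in some other neural cells, and there is no group with the Cre alone, so Cre and loss of Prrc2b cannot be told apart. The labels do not say whether replicates were separate animals or how many animals each holds, so p-values measure the spread between these libraries only.

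SoxE proteins specify the oligodendrocyte lineage and later switch on the myelin genes. In the mouse Sox9 acts first, in neural stem cells and in the choice of a glial fate, and stays on in astrocytes. Sox10 persists through the oligodendrocyte lineage and drives myelin gene transcription, with Sox8 as a partly redundant relative. SoxD proteins lack a transactivation domain of their own. Sox5 and Sox6 are known in OPCs to oppose SoxE proteins and hold back terminal differentiation, and in cartilage to assist Sox9, while Sox13 is the least described of the group in glia. Sox5 and Sox6 are also known from cortical neurons, Sox5 from deep-layer projection neurons and Sox6 from inhibitory neurons.

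Among the 4 genes with an entry in RefSeq's promoter table of GRCm38.p6 (Sox5, Sox6, Sox13 and Sox8), the windows at the gene's own outer start differ in base composition, and 3 are shown for that reason. Each runs from 250 bases before to 50 bases after the start. Capitals mark a match to a SOX-type core. The motifs searched on both strands were ACAAAG as the first, ACAATG as the second and AACAAT as the third, of which the last pair can overlap.
Sox6, chr7:116038695-116038994, minus strand: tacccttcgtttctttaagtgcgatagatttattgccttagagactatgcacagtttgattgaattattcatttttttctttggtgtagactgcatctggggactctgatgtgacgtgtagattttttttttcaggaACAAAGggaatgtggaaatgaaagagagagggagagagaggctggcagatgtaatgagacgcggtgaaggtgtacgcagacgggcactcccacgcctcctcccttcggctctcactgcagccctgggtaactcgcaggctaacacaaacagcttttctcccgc
Sox13, chr1:133424163-133424462, minus strand: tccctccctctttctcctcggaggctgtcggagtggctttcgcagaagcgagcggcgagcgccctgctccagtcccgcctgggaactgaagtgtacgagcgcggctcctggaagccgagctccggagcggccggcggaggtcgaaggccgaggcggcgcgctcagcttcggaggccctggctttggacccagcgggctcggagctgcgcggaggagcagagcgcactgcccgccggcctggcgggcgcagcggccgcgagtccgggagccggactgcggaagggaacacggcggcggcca
Sox8, chr17:25570637-25570936, minus strand: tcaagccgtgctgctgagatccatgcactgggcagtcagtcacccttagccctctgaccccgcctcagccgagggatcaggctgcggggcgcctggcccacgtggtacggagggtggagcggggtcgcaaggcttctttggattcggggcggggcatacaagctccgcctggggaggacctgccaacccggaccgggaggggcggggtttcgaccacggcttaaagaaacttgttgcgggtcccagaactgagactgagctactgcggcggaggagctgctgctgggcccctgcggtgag
The Sox6 window holds ACAAAG at position -113 from the start, and the Sox13 and Sox8 windows hold none of these letters. Of 32851 windows of that length in the table, 33.2% hold at least 1 of the motifs. GC content was 47.0% in the Sox6, 73.3% in the Sox13 and 66.3% in the Sox8 window, against a median of 52.7% over all windows. Sox6 has 5 further entries and Sox5 has 1 entry, all at internal starts of these long genes.

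In the GENCODE annotation of GRCm38, Sox5 spans 953553 bases of chromosome 6 (143828425 to 144781977) and Sox6 spans 567925 bases of chromosome 7 (115470872 to 116038796), both on the minus strand. Sox13 lies on chromosome 1 (133382303 to 133424377, minus strand). The SoxE genes are compact. Sox8 covers 4795 bases of chromosome 17 (25565892 to 25570686, minus strand), Sox9 covers 5537 bases of chromosome 11 (112782224 to 112787760, plus strand) and Sox10 covers 10333 bases of chromosome 15 (79154908 to 79165240, minus strand). Sox8 shares 329 exon bases with the antisense gene 2810468N07Rik, and Sox5 shares 1330 exon bases with the antisense gene Sox5os1, which is not among the genes counted. The libraries were made with a strand-marking kit per the labels' protocols, but the sources used here do not state whether counting used the strand, so reads of these overlaps cannot be assigned with certainty.

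The libraries held between 26015604 and 28114968 read pairs in genes. Prrc2b, the targeted gene, stood at 743 ± 88.2 CPM (counts scaled by TMM to a common library size and given per 1e6 read pairs) in knockout and 989 ± 105 CPM in control libraries (SD, n = 3 each), and was lower in all 3 same-numbered pairs. The OPC marker Pdgfra was present in every library, between 182 and 396 CPM. So were markers of other cells, with the 20 astrocyte markers summing to between 3810 and 7226 CPM and the 14 inhibitory neuron markers to between 750 and 2264 CPM per library. In such mixed RNA, fewer cells of a type and less RNA per cell cannot be told apart. Libraries with the same replicate number deviated together from their group means (correlations of 0.712, 0.682 and 0.654 over the tested genes), so each test is given without and with the number as a block. With the block Prrc2b was at 0.750 of the control level (log2 fold change -0.41, SE 0.06, adjusted p by edgeR = 0.00688). Without the block it was at 0.751 of the control level and did not reach an adjusted p under 0.05.

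None of the SoxD and SoxE genes passed the test between knockout and control libraries, with or without the block. Without it, edgeR's quasi-likelihood test called 0 of the 6 at an adjusted p under 0.05, against 0% of all 15906 tested genes, of which 274 had an unadjusted p under 0.05. With the block it again called 0 of the 6, against 3.80% of all tested genes, 1.57% as higher and 2.23% as lower in the knockout. DESeq2 and limma-voom also called 0 of the 6 with and without the block. The groups overlapped for all 6 genes, while they did not overlap for 6.34% of tested genes. In 0 of the 6 did all 3 pairs move one way, against 40.5% of tested genes.

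**Figure D1:**
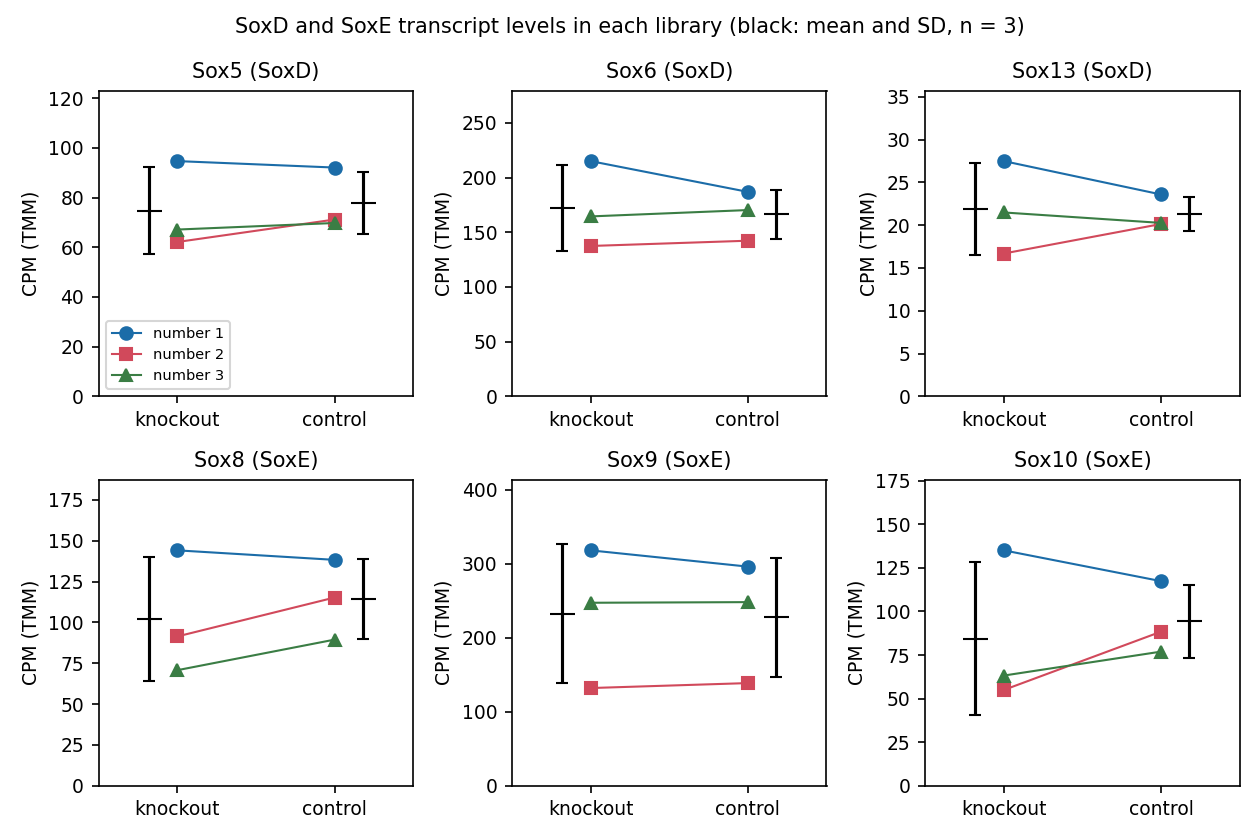
Each panel plots the TMM-scaled CPM (y axis, from 0) of 1 gene in the 3 knockout libraries (left) and the 3 control libraries (right), with lines joining libraries of the same replicate number and black bars for mean and SD. The library numbered 1 is the highest of its group in every panel, and the groups overlap in all 6.

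Sox9, the SoxE gene of neural stem cells and astrocytes, had the highest mean of the 6 in both groups and the narrowest blocked interval. It had 318, 132 and 247 CPM in knockout libraries 1, 2 and 3, against 296, 139 and 248 CPM in control libraries 1, 2 and 3. Library 2 was low and library 1 high in both groups, and the groups overlapped. The blocked log2 fold change was 0.01 (SE 0.04, adjusted p by edgeR = 0.929), with a 95% interval from -0.08 to 0.10, or 0.945 to 1.07 of the control level. Without the block the estimate was 0.03 (SE 0.38, adjusted p by edgeR = 1.00), with an interval of -0.89 to 0.95. Of the variation of log2 CPM over the 6 libraries, 99.5% lay between replicate numbers and 0.00801% between genotypes, against medians of 77.7% and 6.65% over all tested genes. The 20 astrocyte markers summed to 7226, 4509 and 6623 CPM in knockout and 6260, 3810 and 6008 CPM in control libraries 1, 2 and 3, so library 2 was the lowest there too. That order was not particular to astrocyte markers. The 20 OPC markers summed to 6192, 3271 and 4803 CPM in knockout and 5323, 3213 and 4629 CPM in control libraries 1, 2 and 3. With the block 7 of the 20 astrocyte markers rose and 0 fell, at a median log2 fold change of 0.20, while 1.57% of all tested genes rose and 2.23% fell. Without the block 0 of the 20 passed. The summed astrocyte level was 0.21, 0.24 and 0.14 higher (log2) in the knockout library of pairs 1, 2 and 3. The parts of astrocyte and OPC RNA in the Sox9 values were not tested.

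Sox10, which drives the myelin genes, had 135, 54.9 and 63.2 CPM in knockout libraries 1, 2 and 3, against 117, 88.4 and 77.0 CPM in control libraries 1, 2 and 3. The knockout libraries were both the highest and the lowest of the 6. Its blocked log2 fold change was -0.25 (SE 0.13, adjusted p by edgeR = 0.357), with a 95% interval from -0.54 to 0.04, or 0.687 to 1.03 of the control level, so a fall of that size could not be told from no change. Without the block it was -0.16 (SE 0.36, adjusted p by edgeR = 1.00). The pairs went different ways, at 0.20, -0.69 and -0.28 (log2) for numbers 1, 2 and 3.

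Sox8, the relative of Sox10, showed the same division of the pairs. It had 144, 91.4 and 70.7 CPM in knockout libraries 1, 2 and 3, against 138, 115 and 89.4 CPM in control libraries 1, 2 and 3, with differences of 0.06, -0.33 and -0.34 (log2) in pairs 1, 2 and 3. The knockout library was thus lower in pairs 2 and 3 and close to its control in pair 1. Its blocked log2 fold change of -0.20 (SE 0.08, 95% interval -0.38 to -0.03) had an unadjusted edgeR p of 0.0269 but an adjusted p of 0.204, and without the block it was -0.16 (SE 0.29, adjusted p by edgeR = 1.00). The overlapping antisense gene 2810468N07Rik stood at 25.3, 14.7 and 11.8 CPM in knockout and 20.0, 20.1 and 10.5 CPM in control libraries, with a blocked log2 fold change of 0.02 (SE 0.15, adjusted p by edgeR = 0.963).

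Sox8 and Sox10 were called in a single setting. When both libraries numbered 1 were left out, the blocked edgeR test gave log2 fold changes of -0.48 (SE 0.10, adjusted p = 0.0188) for Sox10 and -0.33 (SE 0.07, adjusted p = 0.0195) for Sox8, in a fit that called 1.06% of its 16043 tested genes as lower. Without the libraries numbered 2 the estimates were -0.04 for Sox10 and -0.14 for Sox8, and without those numbered 3 they were -0.23 and -0.13, none of them passing. The 20 markers of committed and myelinating oligodendrocytes moved unevenly across the same pairs. They summed to 2616, 1606 and 1292 CPM in knockout and 1603, 2414 and 1257 CPM in control libraries 1, 2 and 3, which is 0.71, -0.59 and 0.04 (log2) in the pairs, and with the block 0 of the 18 tested passed. The 20 OPC markers, Olig2 among them, differed by 0.22, 0.03 and 0.05 (log2) in sum, and 1 of 20 passed with the block, upward. Over all tested genes 3.80% passed with the block, 1.57% of them all upward. Single genes, picked here once their values were known, went different ways. In pairs 1, 2 and 3 Olig2 was at -0.07, -0.93 and -0.53 and Nkx2-2 at 0.41, -0.91 and -0.62. Ptprz1, the largest part of the sum, was at 0.28, 0.14 and 0.10 and Pdgfra at 0.05, 0.13 and 0.09. Without the libraries numbered 1 Nkx2-2 passed too, at -0.76 (adjusted p by edgeR = 0.0222). Gpr17 is in both marker lists. The part of these markers in the Sox8 and Sox10 values was not tested.

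**Figure D2:**
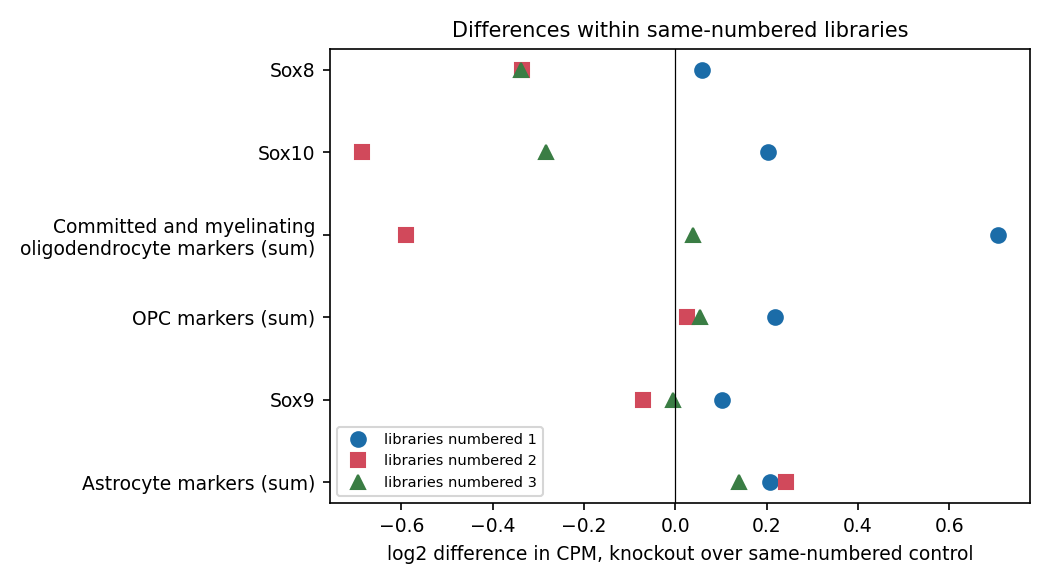
Each symbol is the log2 difference in TMM-scaled CPM (x axis) between the knockout and the control library of 1 replicate number, for Sox8, Sox10, Sox9 and the summed levels of 3 marker lists (y axis). Sox10 lies at 0.20, -0.69 and -0.28 and the committed oligodendrocyte markers at 0.71, -0.59 and 0.04 for numbers 1, 2 and 3, while Sox9 stays within 0.10 of 0 to 2 decimals.

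The SoxD genes differed less between libraries than the SoxE genes. Sox6, the more abundant antagonist of SoxE function, had 215, 137 and 164 CPM in knockout libraries 1, 2 and 3, against 187, 142 and 170 CPM in control libraries 1, 2 and 3. Library 1 was high in both groups, and the groups overlapped. The blocked log2 fold change was 0.04 (SE 0.05, adjusted p by edgeR = 0.794), with a 95% interval from -0.09 to 0.16. Sox5 had 94.7, 62.1 and 67.1 CPM in knockout libraries 1, 2 and 3, against 92.1, 71.2 and 69.8 CPM in control libraries 1, 2 and 3. Its values overlapped as well, and its blocked log2 fold change was -0.07 (SE 0.06, adjusted p by edgeR = 0.622, 95% interval -0.21 to 0.07). Sox13, the lowest of the 6, had 27.5, 16.7 and 21.5 CPM in knockout libraries 1, 2 and 3, against 23.6, 20.1 and 20.3 CPM in control libraries 1, 2 and 3. The 3 control values of Sox13 lay within the range of the knockout values, and its blocked log2 fold change was 0.02 (SE 0.11, adjusted p by edgeR = 0.965, 95% interval -0.24 to 0.27). Without the block the edgeR adjusted p was 1.00 for each of these genes. Markers of neurons in which Sox5 and Sox6 are also known fell in part with the block, 2 of 10 for deep-layer cortical neurons and 4 of 14 for inhibitory neurons, with 0 rising in either list. Over all tested genes 2.23% fell with the block, and without it 0 of either list passed. The part of these neuronal markers in the SoxD values was not tested. The highest library exceeded the lowest by 1.52-fold for Sox5, 1.56-fold for Sox6 and 1.65-fold for Sox13, and by 2.04-fold for Sox8, 2.41-fold for Sox9 and 2.46-fold for Sox10.

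**Figure D3:**
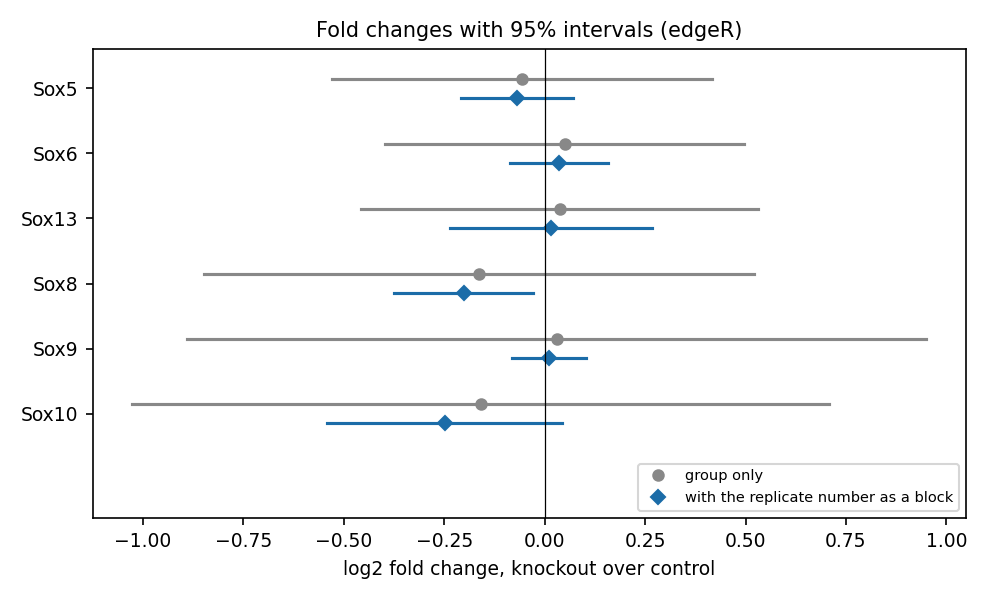
Points are log2 fold changes of knockout over control (x axis) with 95% intervals from edgeR, in grey with group as the only term and in blue with a block for replicate number. The blocked intervals are narrower for all 6 genes, and that of Sox8 (-0.38 to -0.03) is the only one without 0, before adjustment over all genes.

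The 6 genes, chosen with earlier results of these data known, were in part alike in how they varied with the replicate number. All 6 were highest in the library numbered 1 in both groups, as were 19.8% of tested genes, and 3 of the 6 (Sox6, Sox9 and Sox13) were lowest in the library numbered 2 in both groups, as were 24.0% of tested genes. All 6 were higher in the knockout library of pair 1, all 6 were lower in that of pair 2, and 5 of 6 were lower in that of pair 3, where 49.9%, 51.0% and 50.3% of tested genes took the same direction. The replicate number held between 76.6% (Sox10) and 99.5% (Sox9) of the variation in log2 CPM of each gene, against a median of 77.7% over all tested genes. Genotype held at most 7.81% (Sox8), against a median of 6.65%. What a replicate number stands for is not given in the labels.

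Levels of different genes were compared per kilobase of annotated exon, which for Sox5 and Sox6 adds up many isoforms. On that scale Sox9 stood at 56.2 ± 22.7 CPM per kilobase in knockout and 55.0 ± 19.5 in control libraries (SD, n = 3 each). Sox8 stood at 32.7 ± 12.1 and 36.7 ± 7.84, and Sox10 at 27.7 ± 14.4 and 30.9 ± 6.83 CPM per kilobase in knockout and control libraries. The SoxD genes were lower, with Sox6 at 11.6 ± 2.65 and 11.2 ± 1.52, Sox5 at 5.19 ± 1.22 and 5.40 ± 0.869, and Sox13 at 5.08 ± 1.25 and 4.95 ± 0.453 CPM per kilobase in knockout and control libraries. In that order the library values of Sox9 and Sox8, of Sox8 and Sox10, and of Sox5 and Sox13 overlapped within each group, although Sox9 exceeded Sox8 in 5 of the 6 libraries. Every library value of Sox6 lay below those of Sox10 and above those of Sox5 in the same group, while mean ± SD of Sox6 and Sox10 overlapped in the knockout. The nearness of Sox5 and Sox13 depended on the length used: with the longest transcript in place of all exons, Sox5 made up 28.6% and Sox13 16.4% of SoxD transcript in knockout libraries, and 30.0% and 16.2% in control libraries. Among 15332 tested genes with a known length, the mean level per kilobase of Sox9 was at percentile 96.0, that of Sox8 at 91.8, Sox10 at 89.1, Sox6 at 68.3, Sox5 at 48.0 and Sox13 at 46.8.

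Within its family Sox6 made up 53.1% ± 0.333 of SoxD transcript per kilobase in knockout and 52.0% ± 2.37 in control libraries (SD, n = 3 each). Sox9 made up 48.0% ± 9.02 of SoxE transcript in knockout and 44.2% ± 9.66 in control libraries, and Sox10 23.1% ± 3.20 and 25.4% ± 3.52. The Sox8 and Sox9 parts moved with the replicate number, and Sox8 exceeded Sox9 only in control library 2, where Sox9 made up 33.7%. The Sox8 share was highest in libraries numbered 2, at 37.0% in the knockout and 37.2% in the control library, and the Sox9 share was highest in those numbered 3, at 57.9% and 52.7%.

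**Figure D4:**
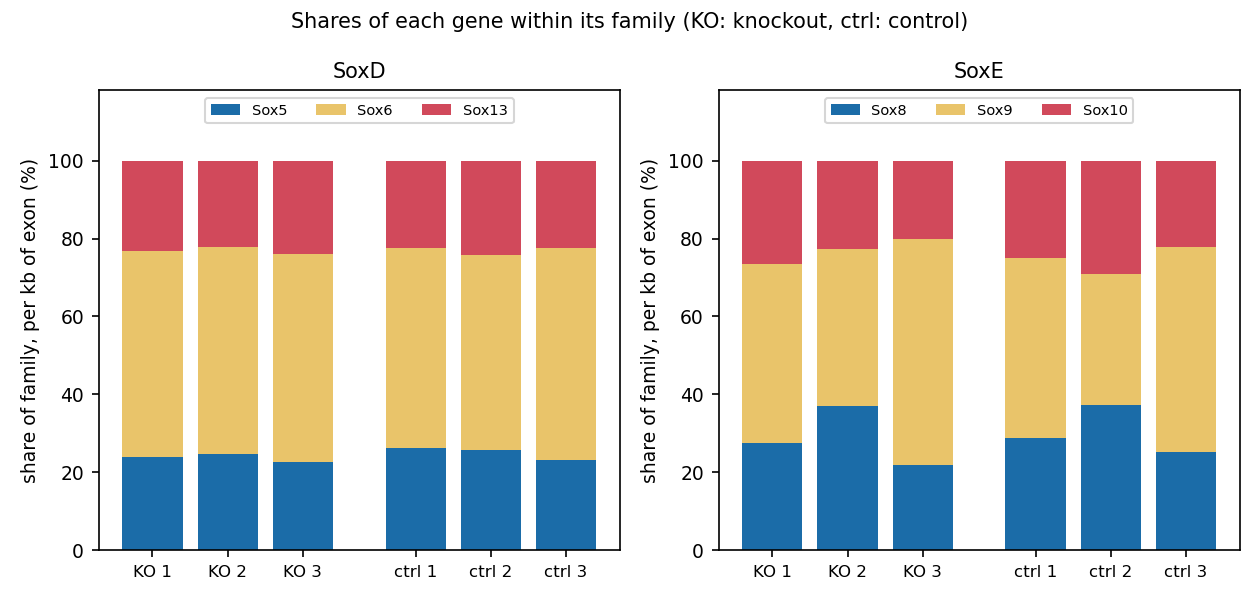
Stacked bars give the share (y axis, percent) of each gene in the summed level per kilobase of exon of its family, SoxD on the left and SoxE on the right, for knockout libraries (KO) and then control libraries (ctrl) 1 to 3. Sox6 takes about the same part in every library (49.9% to 54.6%), while the Sox9 part runs from 33.7% to 57.9%.

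The balance between family members was compared by 4 log2 ratios within each library, which do not depend on library scaling. Sox9 over Sox10 averaged 1.05 ± 0.41 in knockout and 0.78 ± 0.53 in control libraries (SD, n = 3 each), a difference of 0.26 that did not pass an exact two-sided permutation test (p = 0.6, adjusted over the 4 ratios 0.8). Sox8 over Sox10 averaged 0.30 ± 0.35 and 0.25 ± 0.09 in knockout and control libraries (exact permutation p = 1, adjusted 1). Sox5 over Sox6 averaged -1.16 ± 0.08 and -1.06 ± 0.16 (exact permutation p = 0.3, adjusted 0.8), lower in the knockout library of all 3 pairs, by 0.16, 0.15 and 0.01 on the log2 scale. The SoxD sum over the SoxE sum averaged -2.37 ± 0.22 and -2.49 ± 0.15 (exact permutation p = 0.4, adjusted 0.8), with the knockout library higher in all 3 pairs, at 0.05, 0.19 and 0.12. Both of the last pair gave p = 0.25 when signs were flipped within pairs, an exact test. With 3 libraries against 3 the smallest p these permutations can give is 0.1, and with sign flips it is 0.25, so no ratio could have passed.

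Other Sox families did hold genes that passed. Of 13 further Sox genes 11 were tested, and with the block 6 fell, 1 rose and 4 did not pass, at a median log2 fold change of -0.26, against 0.00 over all tested genes and -0.03 over the 6 SoxD and SoxE genes. The falls were 3 of 4 tested SoxB genes, which maintain neural progenitors, and 3 of 3 SoxC genes, which act in immature neurons and progenitors. Over all tested genes 2.23% fell and 1.57% rose with the block. Sox4 stood at 607 ± 90.4 CPM in knockout and 802 ± 109 CPM in control libraries (blocked log2 fold change -0.40, SE 0.04, adjusted p by edgeR = 0.00294). Sox2, Sox12 and Sox11 were at -0.30, -0.40 and -0.26 (SE 0.04, 0.06 and 0.04). Without the block 0 of the 11 passed, and Sox11 lost the blocked call without the libraries numbered 1 (adjusted p by edgeR = 0.0620) or 2 (0.0537). The SoxB genes Sox1 and Sox3, named here after their values were seen, lost it without those numbered 3 (0.136 and 0.0834). Sox3 also lost it with the GC correction (0.0714). The single rise was Sox7, a SoxF gene of blood vessels named here after its values were seen, at 19.2 ± 18.7 CPM in knockout and 6.07 ± 3.44 CPM in control libraries (blocked log2 fold change 1.35, SE 0.26, adjusted p by edgeR = 0.0266). It lost the call without the libraries numbered 3 (adjusted p by edgeR = 0.204) and with DESeq2 as the test (DESeq2 adjusted p = 0.161). Endothelial markers, Sox7 among them, summed to 204 ± 174 CPM in knockout and 73.1 ± 46.2 CPM in control libraries, with 10 of 14 rising with the block. The difference between these families and the SoxD and SoxE genes was not tested.

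**Figure D5:**
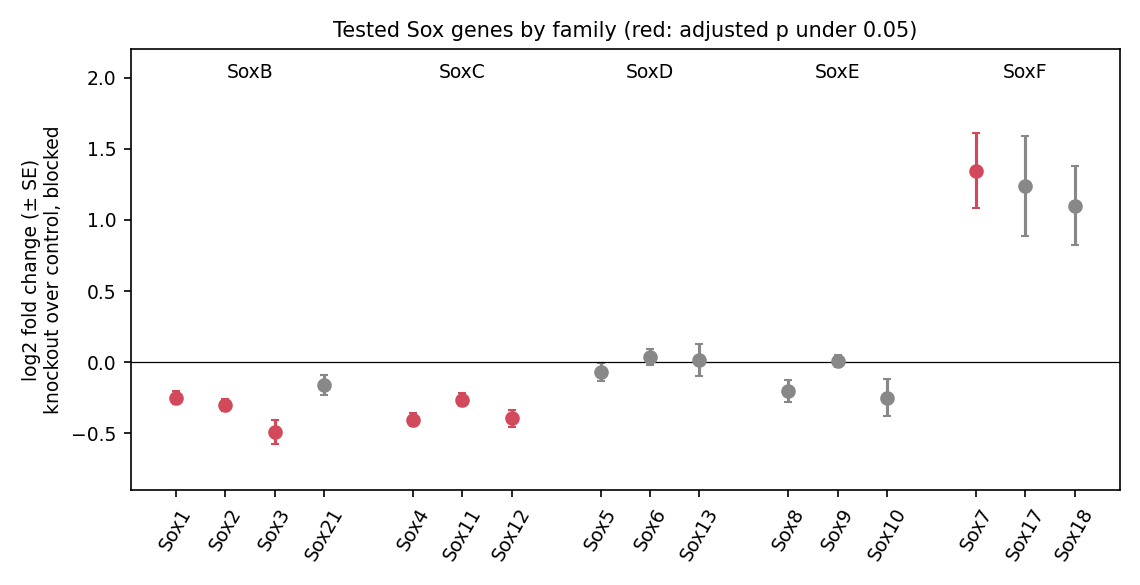
Points are blocked log2 fold changes of knockout over control with their SE (y axis) for the tested genes of the SoxB to SoxF families (x axis), red where the edgeR adjusted p was under 0.05. The 3 SoxD and 3 SoxE genes are all grey, between -0.25 and 0.04, while 3 SoxB and 3 SoxC genes are red below 0 and Sox7 is red above it.

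Genes known as SoxE targets in myelinating glia mostly did not pass. Of 16 listed 15 were tested, and with the block 1 rose, 0 fell and 14 did not pass, at a median of 0.16. Over all tested genes 1.57% rose and 2.23% fell with the block, at a median of 0.00, so so few calls set the list apart from other genes in neither direction. The rise was Ednrb, an endothelin receptor of glial progenitors, at 395 ± 130 CPM in knockout and 353 ± 115 CPM in control libraries (blocked log2 fold change 0.16, SE 0.04, adjusted p by edgeR = 0.0393), and it lost the call when any pair was left out (0.116 to 0.146) and with the GC correction (0.0970). Pdgfra, the growth factor receptor of OPCs, stood at 320 ± 105 and 302 ± 106 CPM (0.09, SE 0.04, adjusted p by edgeR = 0.222), Egr2, a regulator of Schwann cell myelination, at 0.24 (SE 0.13), and the phosphatase gene Dusp15 at 0.32 (SE 0.28). Mbp, which encodes myelin basic protein, had 292, 224 and 100 CPM in knockout libraries 1, 2 and 3, against 107, 419 and 87.7 CPM in control libraries 1, 2 and 3, so the libraries numbered 2 ran against the others. Without the libraries numbered 2, 6 of the listed targets passed with the block, among 521 genes in all. Mbp was then at 0.83 (SE 0.19, adjusted p by edgeR = 0.0414). Mbp was picked once its values were known.

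Cartilage genes that Sox9 switches on together with Sox5 and Sox6 did not pass. Of 11 listed 10 were tested, with 0 calls with or without the block and a blocked median of 0.04. Over all tested genes 3.80% were called with the block and 0% without it, so 0 calls among 10 genes is near that share. Acan, a proteoglycan of cartilage and of brain matrix, was nearest at 0.57 (SE 0.16, adjusted p by edgeR = 0.0802), and was higher in the knockout library of all 3 pairs. Col9a3 was at 0.16 (SE 0.08), Matn1 at -0.61 (SE 0.55) and Col11a1 at 0.07 (SE 0.07).

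Of 27 partners and co-regulators of the SoxD and SoxE proteins, 7 fell with the block, 0 rose and 20 did not pass, at a median of -0.11, and 0 passed without it. Over all tested genes 2.23% fell with the block. Pou3f2 and Pou3f1, POU-domain factors that act with Sox proteins in neural cells and Schwann cells, were at -0.25 (SE 0.03, adjusted p by edgeR = 0.00716) and -0.72 (SE 0.11, adjusted p = 0.0121). Nfix, of the nuclear factor I family, was at -0.30 (SE 0.05, adjusted p = 0.0154), and Smarca4, the ATPase of the BAF chromatin remodelling complex, at -0.19 (SE 0.04, adjusted p = 0.0266). Pou3f1 lost the blocked call without the libraries numbered 3 (adjusted p by edgeR = 0.116), Nfix without those numbered 1 (0.0751), and Smarca4 without those numbered 1 (0.169) or 3 (0.0733). Olig2, the lineage factor that the Cre is named after, did not pass at -0.50 (SE 0.12, adjusted p by edgeR = 0.0533). The titles do not say whether the Cre sits in the Olig2 locus, and its part in the Olig2 values was not tested. Over 9 blocked settings Olig2 passed in 1 (adjusted p between 0.00366 and 0.309). Without the libraries numbered 1, the setting in which Sox8 and Sox10 passed, Olig2 passed too, at -0.72 (adjusted p by edgeR = 0.000439), and it was at -0.29 without those numbered 2 (0.0754) and at -0.49 without those numbered 3 (0.165).

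The genes whose pattern over the 6 libraries was most like each member were found by the root mean square difference of mean-centred log2 CPM, over 11624 candidate genes averaging 5 CPM or more. Sox5 was nearest to Arl2bp (0.0133), Tsc22d4 (0.0210) and Galnt13 (0.0458), and Sox6 to Cst3 (0.0345), Jun (0.0371) and Tnks1bp1 (0.0417). Sox13 was nearest to Tcp11l2 (0.0556), Gatm (0.0602) and Brix1 (0.0656). Sox9 was nearest to Gpr3 (0.0483), Tspan15 (0.0699) and Erf (0.0708). Sox8 and Sox10 had more distant neighbours, Cenpn (0.102), Rcc1 (0.107) and Tmeff2 (0.116) for Sox8 and Chst3 (0.0966), Prkcq (0.123) and Rtkn (0.139) for Sox10. The median distance of all these genes from a member was between 0.285 and 0.536. Among the 6 themselves, Sox6 and Sox13 were the closest (0.0806), followed by Sox5 with Sox13 and Sox5 with Sox6 (0.115), and Sox8 and Sox9 were the furthest apart (0.523), although both are SoxE genes.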

How the data were processed

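Poly(A) RNA of 6 OPC libraries was sequenced in paired-end mode with a strand-marking kit, per the labels' protocols. The authors deposited raw read-pair counts for each gene symbol, with no normalisation. The mm10 build and the tools DESeq2 1.26.0, HTSeq 0.12.4 and HISAT2 2.2.1 are listed, without roles, per the submitters' processing notes; the sources used here do not state the annotation, parameters or strand setting. The 5 closing entries that name no gene entered neither library sizes nor tests: as means over knockout and control libraries, ambiguous pairs took 1.45% and 1.46% and pairs with several alignments 3.41% and 3.46%, and the closing section gives the other 3.

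Groups came from the labels' titles. After TMM scaling, the deposited counts went into the quasi-likelihood test of edgeR 4.0.16 (R 4.3.3), group as the only term, two-sided, with Benjamini-Hochberg adjustment over 15906 genes kept by filterByExpr. A gene was called, and is said to have risen or fallen, at an adjusted p under 0.05. A second fit added replicate number as a block, since same-numbered libraries deviated together, as the correlations in the report show. The labels do not say what a number marks. Fold changes are knockout over control. Intervals of 95% use the fit's SE and degrees of freedom and cover these libraries only. Lengths, GC content and coordinates came from GENCODE M21 of GRCm38 (mm10), matched by symbol for 23376 of 24421 genes. Ratios used exact permutation over the 20 splits.

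The 6 genes and the gene lists were chosen with earlier results of these data known. Named genes were the 6 members, Prrc2b, the 3 genes nearest to each member (predicted models passed over) and the 4 genes of each list with the lowest blocked adjusted p; others are marked where named. The alternatives were 3 other scalings (upper quartile, library totals, size factors of DESeq2), 2 other filters (none, or 5 CPM on average), limma-voom (limma 3.58.1) and DESeq2 1.42.0 as tests, libraries left out, and a GC correction in 20 bins. Libraries of a group differed far beyond counting noise, so none was counted as a duplicate. Values of some listed genes are not reported here.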

Additional observations from a re-analysis of the deposited data

Results flagged for a closer look

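Read pairs outside the gene counts were a larger share in every knockout than in every control library for 3 of the 5 summary entries, which the comparisons above do not use. Pairs in no gene took 20.8% ± 0.500 in knockout and 19.7% ± 0.665 in control libraries (SD, n = 3 each), pairs of low alignment quality 3.83% ± 0.248 and 3.11% ± 0.193, and unaligned pairs 1.25% ± 0.122 and 1.03% ± 0.0964. Their part in the values of the SoxD and SoxE genes was not tested.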

How the results depend on the processing

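The replicate block changed no call of the 6 genes, and over it and 8 further blocked settings the adjusted p stayed between 0.106 and 0.991. Leaving out both libraries numbered 1 was the exception: 2 of the 6 passed, Sox8 at -0.33 and Sox10 at -0.48, and Sox6, Sox13 and Sox9 turned to -0.043, -0.085 and -0.031, while Sox13 was at -0.017 without those numbered 3. Without the block, leaving out 1 library at a time moved the log2 fold changes between -0.27 and 0.085 for Sox5, -0.14 and 0.19 for Sox6, -0.16 and 0.20 for Sox13, -0.50 and 0.042 for Sox8, -0.27 and 0.31 for Sox9 and -0.68 and 0.072 for Sox10, so all 6 changed sign. In the same way the knockout minus control difference in log2 ratio ran from -0.15 (without knockout replicate 2) to 0.17 for Sox8 over Sox10, and from -0.023 (without control replicate 2) to 0.50 for Sox9 over Sox10. Without the block 0 genes of any of the 4 lists passed. With the block, and then with DESeq2 size factors, library totals, upper quartile scaling, no filter, a 5 CPM minimum, the DESeq2 test, limma-voom and the GC correction on top of it, the number passing was 7, 7, 7, 7, 9, 7, 6, 8 and 6 of the other Sox genes, 7, 7, 6, 6, 9, 5, 8, 8 and 6 of the partners, and 1 or 2 of the SoxE targets in the first 8. Cartilage targets numbered 1 without a filter and 1 without the libraries numbered 2. Without the libraries numbered 1, 2 or 3, the other Sox genes numbered 6, 6 and 4, the partners 4 in each case, and the SoxE targets 6 without those numbered 2. Over all genes 604 passed with the block, from 174 (without the libraries numbered 3) to 1034 (no filter), against 0 without it and 20 by DESeq2. Sox13 made up 23.1% of SoxD transcript in knockout and 23.0% in control libraries per kilobase of exon, 16.4% and 16.2% per longest transcript length (a choice made after seeing the data), and 8.12% and 8.07% with no division by length. The cause of these shifts was not tested. Each of the 6 genes had 469 or more read pairs in every library, and the part of depth was not tested.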

Other observations

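Ngfr, a receptor of immature Schwann cells and other cells picked once its values were known, stood at 1.71, 1.42 and 7.06 CPM in knockout and 1.33, 0.648 and 3.54 CPM in control libraries 1, 2 and 3, highest in library 3 of each group. Its blocked estimate, 0.83 on the log2 scale (SE 0.28), missed the threshold (adjusted p by edgeR = 0.143). Over the 12 Schwann cell and neural crest markers, Sox10 among them, 0 of 11 tested passed with the block, against 3.80% of all tested genes.

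BC006965, a non-coding gene picked once its values were known, starts just before Sox9 and runs away from it on the opposite strand. It had 41, 26 and 40 read pairs in knockout libraries 1, 2 and 3, against 15, 22 and 26 in control libraries 1, 2 and 3. The groups did not overlap, as for 6.34% of tested genes, and its blocked estimate, 0.75 on the log2 scale (SE 0.42), missed the threshold (adjusted p by edgeR = 0.394).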
